A study of Mus musculus with 16 samples.

Results

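RNA sequencing was used to compare lungs that had received 4 Gy of ionizing radiation with unirradiated lungs, both from mice given a control antibody (IgG). The comparison took the 2 libraries whose titles name IgG and 4 Gy and the 3 whose titles name IgG and 0 Gy, which are 5 of the 16 libraries of the series. Mice were of the C57BL/6 strain and carried HKP1 tumours in the lung, HKP1 being a mouse lung adenocarcinoma line, so tumour, resident lung and infiltrating immune cells were read together. The time label is 24 to 48 h after radiotherapy in every library, those at 0 Gy included, and RNA of 3 to 4 mice was pooled for a library. The other 11 libraries were 3 with IgG at 8 Gy and, with an antibody against the checkpoint receptor PD-1, 3 at 4 Gy, 3 at 8 Gy and 2 at 0 Gy. Nothing in the labels states that pools of 1 group held different mice, so the p-values below reflect pool-to-pool spread, which may be technical.

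Ionizing radiation breaks DNA, and the breaks stabilise the transcription factor p53, which switches on genes that hold the cell cycle, repair DNA or start cell death. DNA that leaks from damaged nuclei can be sensed in the cytosol, and the type I interferons made in response switch on antiviral genes in the cells around. Lymphocytes are among the most radiosensitive cells of the body, whereas the lung's resting epithelium and vessels are known for slower injury.

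Values are CPM, the reads of a gene scaled to the total of its library, and fold changes are differences of log2(CPM + 0.5), 4 Gy minus 0 Gy, ± SE from limma, a linear model with a shared estimate of spread. One read was worth 0.0185 and 0.0155 CPM in the 4 Gy libraries and 0.0188, 0.0222 and 0.0207 CPM in the 0 Gy libraries, so depth was of the same order in both groups and somewhat higher at 4 Gy. Lung markers were present in each of the 5 libraries: the surfactant gene Sftpc was lowest in 0 Gy replicate 2, at 442 CPM. The pair of 4 Gy libraries was more alike (r = 0.989 across genes, which are not independent replicates) than the pairs of 0 Gy libraries (0.934 to 0.973). Mitochondrially encoded transcripts took 4.99 and 6.54% of the CPM at 4 Gy and 1.01, 2.37 and 2.16% at 0 Gy. Haemoglobin transcripts took 0.586 and 1.10% at 4 Gy and 0.536, 0.216 and 2.39% at 0 Gy. The running numbers in the titles were 26 and 27 at 4 Gy and 13 to 15 at 0 Gy; if these numbers stand for preparations, the effects of preparation and of irradiation cannot be told apart.

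The cell cycle inhibitor gene Cdkn1a rose at 4 Gy, and it was the only gene of 17546 to pass the test (0.00570% higher, with 0 lower; limma, Benjamini-Hochberg adjusted p under 0.05). At an unadjusted p under 0.05 there were 676 higher (3.85%) and 1340 lower genes (7.64%). The text below therefore gives the level of each named gene in the 5 libraries and says whether the groups overlap. Over all genes tested, both 4 Gy libraries lay above all 3 0 Gy libraries for 1117 genes (6.37%) and below them for 3419 (19.5%). With library medians set equal these counts were 1562 (8.9%) and 2609 (14.9%), and with quantile normalization 1555 and 2660. With 1 library left out fewer values have to be separated, and the counts ran from 1567 above (8.93%) and 4102 below (23.4%) without 0 Gy replicate 1 to 2894 above (16.5%) without 0 Gy replicate 2 and 6524 below (37.2%) without 4 Gy replicate 1. The other shares below were 34.1 and 29.9% without 0 Gy replicates 2 and 3, and 25.9% without 4 Gy replicate 2. The other shares above were 13.7% without 0 Gy replicate 3, and 10.2 and 15.7% without 4 Gy replicates 1 and 2. The list counts that follow are to be read against these shares. Across the 17546 genes the fold change had a median of -0.10, and of -0.03 with equal medians.

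Cdkn1a encodes p21, the main p53-driven brake on the cell cycle, and lies on the plus strand of chromosome 17 between bases 29090976 and 29100727 (mm10). It had 132 and 144 CPM in the 4 Gy libraries, against 45.0, 40.5 and 62.8 CPM in the 0 Gy libraries. The log2 fold change was 1.50 ± 0.19 (95% interval 1.10 to 1.90, adjusted p = 0.0213), and the groups did not overlap. The call ended, with the fold change still at 1.37 or more, without 0 Gy replicate 1 (adjusted p = 0.1002), 0 Gy replicate 2 (0.0938), 4 Gy replicate 1 (0.0699) or 4 Gy replicate 2 (0.644), and when only the 8 IgG libraries (0.115) or only these 5 (0.433) were fitted. Without 0 Gy replicate 3 the adjusted p was 0.00222.

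Of 34 p53 targets, Cdkn1a alone passed; 9 lay above and 2 below the 0 Gy range in both 4 Gy libraries, with a list median of 0.12. There were 15 above without 0 Gy replicate 3 and 14 without 4 Gy replicate 2. Eda2r, a member of the TNF receptor family, had 3.88 and 2.87 CPM at 4 Gy, against 0.790, 0.601 and 1.12 CPM at 0 Gy (1.54 ± 0.27, adjusted p = 0.0694). Phlda3, which restrains Akt signalling, had 37.1 and 40.6 CPM at 4 Gy, against 27.6, 18.9 and 24.6 CPM at 0 Gy (0.72 ± 0.18, adjusted p = 0.194). Zmat3, an RNA-binding p53 target, had 31.8 and 28.4 CPM at 4 Gy, against 20.1, 24.5 and 22.2 CPM at 0 Gy (0.43 ± 0.13, adjusted p = 0.260). The groups did not overlap for these 3 genes, of which Eda2r had the largest fold change and the lowest level. The stress cytokine gene Gdf15 had 3.27 and 4.37 CPM at 4 Gy, against 1.71, 3.14 and 1.03 CPM at 0 Gy. Trp53, which encodes p53 itself and is regulated mainly as a protein, had 50.7 and 49.0 CPM at 4 Gy, within the 0 Gy values of 54.4, 43.0 and 78.2 CPM.

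**Figure D1:**
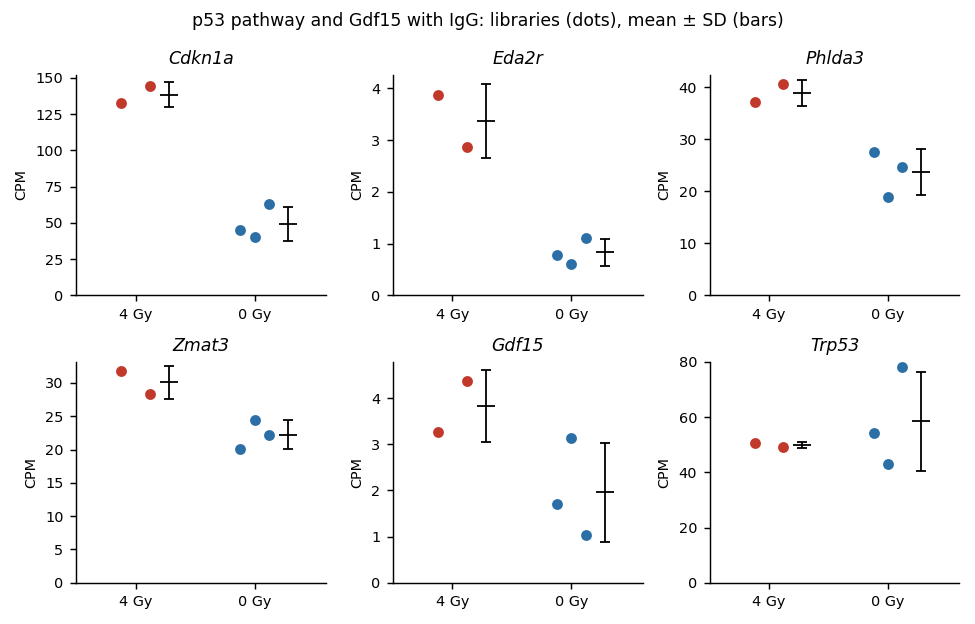
CPM of Cdkn1a, 4 other genes that p53 induces or that mark stress, and Trp53 in the 4 Gy (left) and 0 Gy (right) libraries with IgG, where dots are libraries and bars the mean ± SD (n = 2 at 4 Gy, n = 3 at 0 Gy). Cdkn1a stood at 132 and 144 CPM at 4 Gy, above all 0 Gy values, whereas the Trp53 values overlap.

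Genes stimulated by type I interferon lay higher at 4 Gy throughout the list. All 35 had a fold change above 0, also with quantile normalization and with equal medians, and the list median was 1.07, against -0.10 for all genes. For 29 of the 35, both 4 Gy libraries lay above all 3 0 Gy libraries, where 6.37% of all genes did, and in 0 cases below. In limma 0 of 35 passed the test, while 29 had an unadjusted p under 0.05. Without 0 Gy replicate 3 there were 11 that passed, with quantile normalization 7 and with equal medians 6. The level of the list varied among the unirradiated lungs: its members summed to 2689 and 2482 CPM at 4 Gy, against 1472, 880 and 1978 CPM at 0 Gy.

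Ifit1, which binds viral RNA that lacks a host cap, had 36.002 and 38.4 CPM at 4 Gy, against 8.20, 7.75 and 9.42 CPM at 0 Gy. Its fold change was 2.08 ± 0.33 (adjusted p = 0.0626), and the values within each group were close together. Its relative Ifit3 had 85.6 and 108 CPM at 4 Gy, against 26.5, 13.9 and 31.2 CPM at 0 Gy (2.07 ± 0.33, adjusted p = 0.0626). Ifit3 may share reads with its near-identical copy Ifit3b, which had 18.1 and 19.5 CPM at 4 Gy, against 3.92, 2.57 and 5.90 CPM at 0 Gy. Ifi44, an interferon-induced gene of antiviral defence, had 12.9 and 12.7 CPM at 4 Gy, against 3.14, 1.78 and 3.51 CPM at 0 Gy (2.04 ± 0.33, adjusted p = 0.0626). For each of these genes the lowest 4 Gy library was above the highest 0 Gy library. Isg15, a ubiquitin-like modifier named here after its values were seen, had 42.3 and 53.4 CPM at 4 Gy, against 15.7, 5.58 and 21.95 CPM at 0 Gy (1.88 ± 0.39, adjusted p = 0.127).

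The upstream sequences of 3 of these genes are shown because interferon acts on such promoters through the interferon-stimulated response element, whose core is a pair of GAAA runs with any 2 bases between them. They are the 250 bases before the start site, 5′ to 3′ on the strand of the gene, from RefSeq on GRCm38.p6 (the assembly behind mm10), with each match to this core on either strand in capitals. The Ifit1 window is chr19:34640639-34640888 (plus strand), that of Ifit3 chr19:34583279-34583528 (plus strand) and that of Isg15 chr4:156200819-156201068 (minus strand).
Ifit1: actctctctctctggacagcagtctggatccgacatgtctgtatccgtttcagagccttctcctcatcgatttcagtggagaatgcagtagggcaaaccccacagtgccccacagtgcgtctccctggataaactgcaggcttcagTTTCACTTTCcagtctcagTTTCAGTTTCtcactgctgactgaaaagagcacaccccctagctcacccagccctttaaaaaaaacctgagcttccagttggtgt
Ifit3: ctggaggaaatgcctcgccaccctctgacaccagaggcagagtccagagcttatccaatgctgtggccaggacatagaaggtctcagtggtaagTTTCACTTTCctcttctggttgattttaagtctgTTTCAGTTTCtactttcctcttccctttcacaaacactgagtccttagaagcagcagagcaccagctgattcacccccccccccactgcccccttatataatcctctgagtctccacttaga
Isg15: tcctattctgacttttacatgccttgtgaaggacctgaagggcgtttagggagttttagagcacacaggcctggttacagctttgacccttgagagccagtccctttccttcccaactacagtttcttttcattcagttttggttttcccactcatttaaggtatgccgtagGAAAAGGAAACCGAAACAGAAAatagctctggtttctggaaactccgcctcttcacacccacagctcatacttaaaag
Ifit1 and Ifit3 each hold 2 matches and Isg15 holds 3 that overlap one another. Of the 24 list genes with a RefSeq promoter, 11 hold the core in these 250 bases (45.8%), where 334 of 11848 promoters of tested genes do (2.82%). A match describes the letters only. Of the other genes named above, Ifi44 holds 0 matches and Ifit3b holds 2. The other motif searched, TTTGAA of cell cycle genes, stood in 9 of 25 promoters of mitosis genes (36%) and in 1339 of the 11848 (11.3%).

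**Figure D2:**
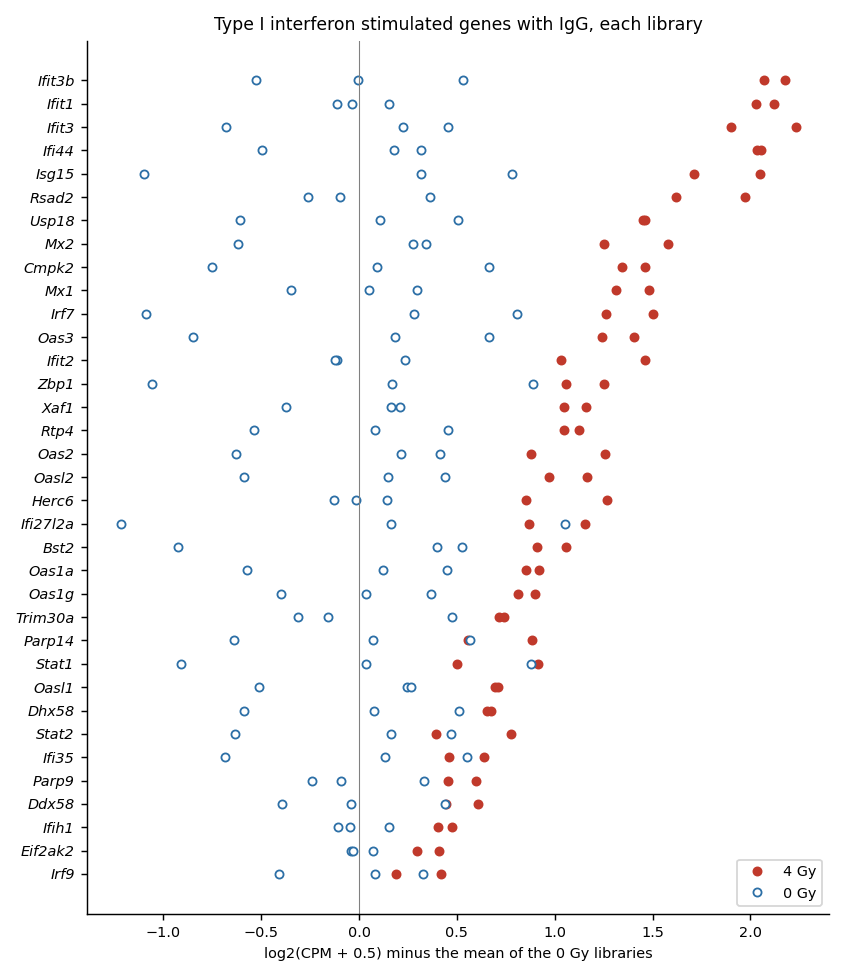
Log2(CPM + 0.5) of the 35 type I interferon stimulated genes in each IgG library, minus the mean of the 3 0 Gy libraries (filled dots 4 Gy, open dots 0 Gy). For 29 of the 35 genes both filled dots lie to the right of all open dots.

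The GTPases that interferon gamma induces against pathogens inside cells, the guanylate-binding proteins and the IRG family, showed the same direction in 20 of 20 members. The list median was 1.08 (0.65 without 0 Gy replicate 2), and 13 of 20 did not overlap, all higher. Tgtp1, an IRG GTPase of T cells and macrophages, had 237 and 174 CPM at 4 Gy, against 101, 63.9 and 103 CPM at 0 Gy (1.22 ± 0.22, adjusted p = 0.0694), and may share reads with its copy Tgtp2. Iigp1 had 319 and 219 CPM at 4 Gy, against 110, 67.5 and 166 CPM at 0 Gy. Both genes were lowest in 0 Gy replicate 2. In limma 0 of the 20 passed, and 16 had an unadjusted p under 0.05.

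The genes of MHC class I and peptide loading, which present antigen to CD8 T cells, had a median of 0.31 (0.03 without 0 Gy replicate 2, 0.53 without 0 Gy replicate 3), with 5 of 24 above the 0 Gy range. That count was 15 without 0 Gy replicate 3 and 8 or 9 without 0 Gy replicate 1 or either 4 Gy library. All 24 had a fold change above 0, but 21 with quantile normalization and 14 without 0 Gy replicate 2. Tapbp, the chaperone that loads peptides, had 864 and 797 CPM at 4 Gy, against 696, 362 and 687 CPM at 0 Gy. The genes of MHC class II had a median of 0.06 and 2 of 11 below the 0 Gy range. Cd274, the gene of PD-L1 and a ligand for PD-1, had 76.6 and 74.1 CPM at 4 Gy, against 54.3, 55.4 and 63.9 CPM at 0 Gy (0.38 ± 0.20, adjusted p = 0.478), and its groups did not overlap. Among 15 tested genes of DNA sensing and of the type I interferon receptor, 5 lay above and 2 below the 0 Gy range. The interferon genes of that list, such as Ifnb1, were not among the genes tested. Ifi204, a DNA sensor, had 77.1 and 76.2 CPM at 4 Gy, against 43.3, 54.9 and 46.0 CPM at 0 Gy. In these 3 lists 0 members passed limma's test, with 1, 1 and 4 at an unadjusted p under 0.05.

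The genes of T cells lay lower at 4 Gy. Of 24 genes of the T cell receptor complex and helper cells, 23 had a fold change below 0, 15 lay below the 0 Gy range in both 4 Gy libraries (19.5% of all genes did) and 0 above. The list median was -0.66, and -0.37 without 0 Gy replicate 3, the library with the highest T cell level. With equal medians it was -0.60 with 14 below the 0 Gy range. Fewer cells of a type and less RNA per cell cannot be told apart in bulk tissue. In limma 0 of 24 passed, with 9 at an unadjusted p under 0.05.

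Cd3e, a chain of the T cell receptor complex, had 20.8 and 21.0 CPM at 4 Gy, against 39.1, 36.1 and 60.0 CPM at 0 Gy (-1.05 ± 0.32, adjusted p = 0.273). Cd6, an adhesion receptor of T cells, had 13.6 and 12.7 CPM at 4 Gy, against 23.8, 21.3 and 43.4 CPM at 0 Gy. Trac, the constant part of the receptor's alpha chain, had 34.5 and 33.1 CPM at 4 Gy, against 54.4, 51.8 and 89.4 CPM at 0 Gy. In each of these genes the 4 Gy libraries were close to one another and below all 0 Gy libraries, of which replicate 3 was the highest. The coreceptor gene Cd8a had 39.2 and 31.9 CPM at 4 Gy, against 67.6, 73.1 and 96.9 CPM at 0 Gy (-1.13 ± 0.38, adjusted p = 0.305). Gzmk, a granzyme of memory CD8 T cells, had 0.758 and 0.310 CPM at 4 Gy, against 2.61, 8.58 and 3.08 CPM at 0 Gy. Gzmc, another granzyme, went the other way, with 1.44 and 4.21 CPM at 4 Gy, against 0.753, 0.403 and 0.825 CPM at 0 Gy.

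Over the 20 genes of cytotoxic lymphocytes the median was 0.03, with 1 above and 5 below the 0 Gy range (8 below without 0 Gy replicate 2). Of all genes 6.37% lay above and 19.5% below (34.1% below without 0 Gy replicate 2). Ifng, the cytokine that T and NK cells make, had 3.96 and 2.46 CPM at 4 Gy, within the 0 Gy values of 2.80, 1.53 and 5.93 CPM (0.05 ± 0.64). Of 23 genes of checkpoints and regulatory T cells, 8 lay below and 3 above the 0 Gy range, with a median of -0.47 (-0.25 without 0 Gy replicate 3). Without 4 Gy replicate 1 there were 13 below and 5 above. Pdcd1, which encodes PD-1, had 14.9 and 10.1 CPM at 4 Gy, against 28.999, 23.6 and 41.6 CPM at 0 Gy (-1.28 ± 0.48, adjusted p = 0.345). Foxp3, the factor that defines regulatory T cells, had 9.25 and 9.03 CPM at 4 Gy, against 15.3, 12.2 and 27.6 CPM at 0 Gy (-0.88 ± 0.27, adjusted p = 0.292). The checkpoint receptor gene Tigit had 7.93 and 5.60 CPM at 4 Gy, against 11.2, 13.9 and 23.007 CPM at 0 Gy. These 3 genes did not overlap between the groups. Of the cytotoxic genes 6 and of the checkpoint genes 11 had an unadjusted p under 0.05, and 0 of either list passed limma's test.

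The 19 tested genes of B and plasma cells had a median of -0.80, but 1 lay above and 2 below the 0 Gy range, and 0 passed limma's test, with 3 at an unadjusted p under 0.05. Cd22, a receptor of B cells, had 42.7 and 38.7 CPM at 4 Gy, against 56.5, 53.6 and 126 CPM at 0 Gy. Without 0 Gy replicate 3, in which Cd22 was highest, the list median was 0.02, and without 4 Gy replicate 2 it was -0.46. The chemokines that draw T cells did not follow the T cell genes. Cxcl9, a ligand of CXCR3 that interferon gamma induces, had 385 and 350 CPM at 4 Gy, against 140, 72.8 and 225 CPM at 0 Gy (1.47 ± 0.53, adjusted p = 0.329). Ccl21a, which guides lymphocytes into lymphatic vessels and has near-identical copies, had 21.1 and 28.8 CPM at 4 Gy, against 14.6, 11.1 and 8.77 CPM at 0 Gy. Of 13 genes of this chemokine list, 5 lay above and 3 below the 0 Gy range (8 above without 4 Gy replicate 1, 5 below without 4 Gy replicate 2), and 0 passed limma's test, with 7 at an unadjusted p under 0.05.

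Macrophages resident in the alveoli, which clear surfactant, are read through 18 genes, of which 7 lay below and 0 above the 0 Gy range (median -0.37, and -0.30 with equal medians). Marco, a scavenger receptor, had 28.9 and 30.8 CPM at 4 Gy, against 54.1, 81.1 and 124 CPM at 0 Gy (-1.44 ± 0.38, adjusted p = 0.207). Cidec, a lipid droplet protein that adipose tissue also expresses, had 13.7 and 9.41 CPM at 4 Gy, against 18.2, 19.9 and 29.2 CPM at 0 Gy. The general macrophage list, with the complement C1q genes, had 2 of 20 above and 4 below the 0 Gy range, near the share of all genes below it, and a median of -0.11. There were 9 below without 0 Gy replicate 3 and 11 without 4 Gy replicate 2. The haemoglobin scavenger receptor gene Cd163 of that list had 1.35 and 1.597 CPM at 4 Gy, against 3.70, 13.2 and 4.44 CPM at 0 Gy. Both 4 Gy libraries lay below all 0 Gy libraries for Marco, Cidec and Cd163. Fcgr1, an activating antibody receptor of the same list, had 43.5 and 56.8 CPM at 4 Gy, above the 0 Gy values of 36.9, 31.2 and 32.3 CPM. Of 17 genes of monocytes and their recruitment, 7 lay above and 2 below the 0 Gy range. Ly6c1, a surface protein of monocytes and also of endothelium, had 139 and 142 CPM at 4 Gy, against 58.7, 44.8 and 63.3 CPM at 0 Gy (1.34 ± 0.28, adjusted p = 0.138). The monocyte chemokine gene Ccl12 had 8.43 and 13.8 CPM at 4 Gy, against 5.64, 5.40 and 4.83 CPM at 0 Gy. In the list of type 2 macrophages and eosinophils 3 of 10 lay above (5 without 4 Gy replicate 1) and 0 below. Ccl24, a chemokine for eosinophils, had 25.3 and 57.5 CPM at 4 Gy, against 13.3, 8.34 and 18.7 CPM at 0 Gy. In limma 0 members of these lists passed, with 5, 4, 5 and 3 at an unadjusted p under 0.05 in the alveolar macrophage, general macrophage, monocyte and type 2 macrophage lists.

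**Figure D3:**
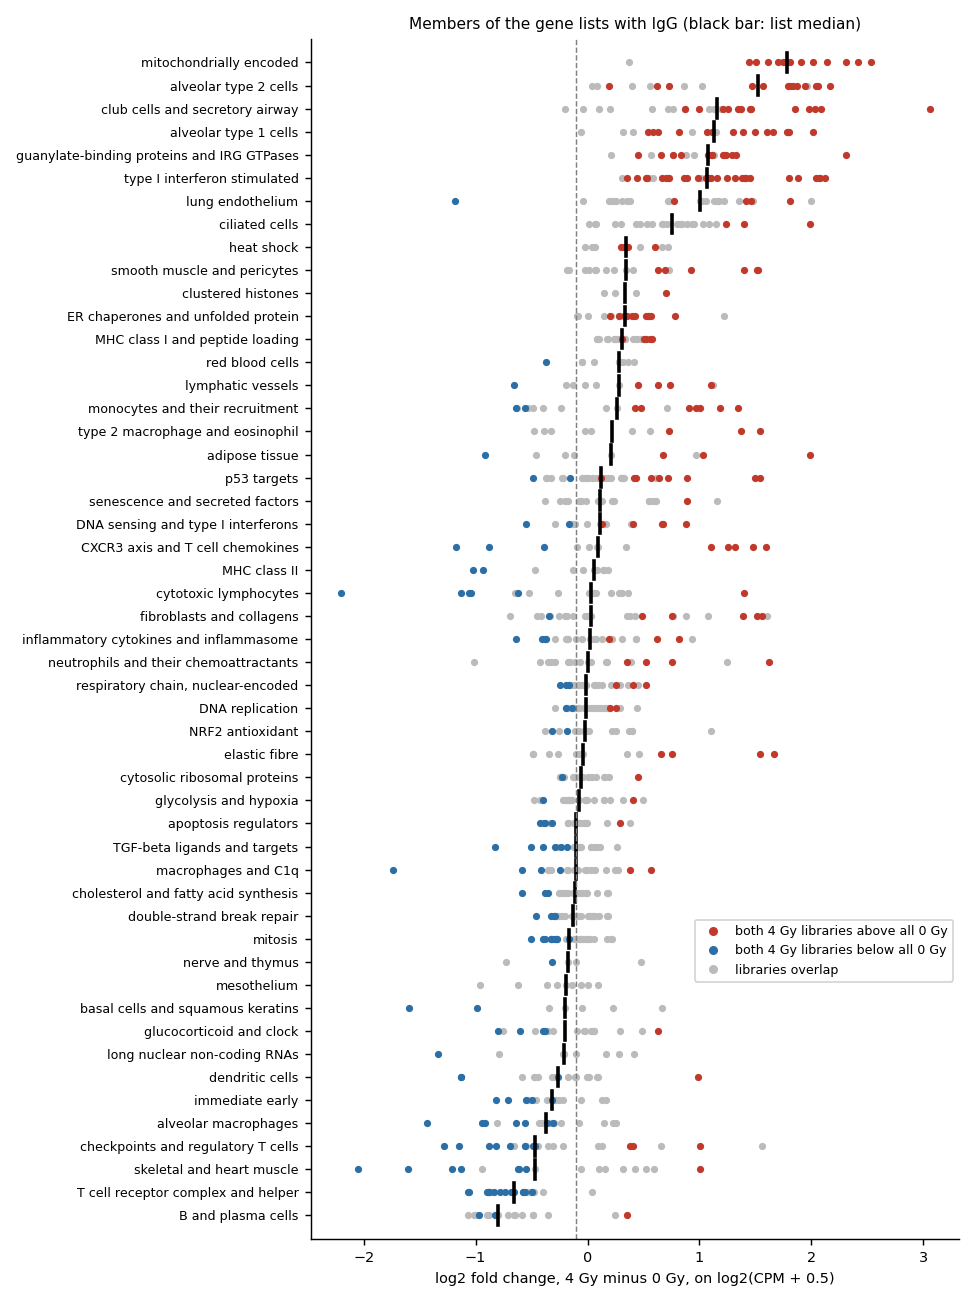
Log2 fold changes (4 Gy minus 0 Gy with IgG) of the tested members of the gene lists, 1 dot per gene, sorted by the list median (black bars); the dashed line is the median of all genes, -0.10. Mitochondrially encoded, alveolar, airway, endothelial, interferon-stimulated and GTPase lists stand at the top and the T cell receptor and B cell lists at the bottom, while the basal cell list has a median of -0.20 and that of DNA sensing 0.11.

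Markers of the alveoli and of secretory airway cells lay higher at 4 Gy, whereas the tested genes of basal cells did not. Those of ciliated cells had fold changes above 0, but most overlapped between the groups. Alveolar type 1 cells, the flat cells of gas exchange, were read through 20 genes, of which 15 lay above and 0 below the 0 Gy range, with a median of 1.13 (0.74 without 0 Gy replicate 2). Alveolar type 2 cells, which make surfactant, had 13 of 20 above and 0 below, with a median of 1.52. Club cells, the secretory cells of the airway, had 13 of 24 above and 0 below, with a median of 1.16 (0.58 without 0 Gy replicate 2). Ciliated cells had 3 of 24 above and 0 below, with a median of 0.75. There were 15 above without 0 Gy replicate 3 and 16 without 4 Gy replicate 2. The ciliated median was 0.165 without 0 Gy replicate 2, 0.36 without 4 Gy replicate 1 and 1.27 without 0 Gy replicate 3. In limma 0 members of these 4 lists passed, with 16, 14, 11 and 2 at an unadjusted p under 0.05, and without 0 Gy replicate 3 there were 3, 3, 4 and 0 that passed.

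Of 7 tested genes of basal cells and squamous keratins 0 lay above and 2 below the 0 Gy range, with a median of -0.20 (0.14 without 0 Gy replicate 1). Krt5, Trp63, Krt17, Krt6a and Sprr2a3 of this list were too low to be tested. Krt14, a keratin of basal cells, had 2.70 and 1.27 CPM at 4 Gy, against 7.49, 4.42 and 8.91 CPM at 0 Gy (-1.59 ± 0.55, adjusted p = 0.313). Krt15, another such keratin, had 1.61 and 0.976 CPM at 4 Gy, against 1.28, 0.289 and 0.475 CPM at 0 Gy. The groups were apart for Krt14 and overlapped for Krt15. In limma 0 of the 7 passed, with 2 at an unadjusted p under 0.05.

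Cldn18, a tight junction protein of the alveolus, had 74.8 and 117 CPM at 4 Gy, against 32.1, 30.6 and 36.1 CPM at 0 Gy (1.50 ± 0.26, adjusted p = 0.0656). Ager, the receptor that marks type 1 cells, named after its values were seen, had 350 and 700 CPM at 4 Gy, against 163, 71.6 and 246 CPM at 0 Gy. Slc34a2, the phosphate transporter of type 2 cells, had 325 and 694 CPM at 4 Gy, against 138, 84.9 and 211 CPM at 0 Gy (1.81 ± 0.39, adjusted p = 0.138). For Ager and Slc34a2 the 4 Gy libraries were themselves apart, with replicate 2 the higher, and both were above all 0 Gy libraries. Among the type 2 markers Sftpd, a surfactant lectin, had 217 and 500 CPM at 4 Gy, against 99.8, 53.3 and 136 CPM at 0 Gy. The surfactant gene Sftpc, also named after its values were seen, had 3332 and 8848 CPM at 4 Gy, against 1758, 442 and 3490 CPM at 0 Gy, so that its groups overlapped.

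The club cell marker Scgb1a1 had 5156 and 3712 CPM at 4 Gy, against 2170, 850.3 and 3668 CPM at 0 Gy (1.21 ± 0.64, adjusted p = 0.481), and 4 Gy replicate 2 was scarcely above 0 Gy replicate 3. Scgb3a2, a secretoglobin of the distal airway, had 620 and 357 CPM at 4 Gy, against 63.8, 26.8 and 102 CPM at 0 Gy (3.06 ± 0.58, adjusted p = 0.0962). Hp, which encodes haptoglobin, had 465 and 502 CPM at 4 Gy, against 151, 97.9 and 160 CPM at 0 Gy (1.85 ± 0.33, adjusted p = 0.0694). Aldh1a1, an aldehyde dehydrogenase, had 178 and 126 CPM at 4 Gy, against 57.4, 55.6 and 60.1 CPM at 0 Gy (1.37 ± 0.24, adjusted p = 0.0656). Scgb3a2, Hp and Aldh1a1 did not overlap between the groups. Sec14l3, a lipid-binding gene of ciliated cells, had 137 and 102 CPM at 4 Gy, against 35.7, 14.3 and 49.8 CPM at 0 Gy.

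Endothelial markers had a median of 1.01 over 25 genes, with 4 above and 1 below the 0 Gy range. Without 0 Gy replicate 2 the median was 0.40, and without 0 Gy replicate 3 it was 1.59 with 22 above; without 4 Gy replicate 1 there were 8 above. Emcn, a surface mucin of capillaries, had 8.39 and 12.5 CPM at 4 Gy, against 2.56, 2.51 and 6.05 CPM at 0 Gy. Cldn5, the tight junction protein of vessels, had 38.7 and 41.0 CPM at 4 Gy, against 13.1, 2.54 and 36.3 CPM at 0 Gy, so that 0 Gy replicate 3 nearly reached the 4 Gy level. Of 25 genes of fibroblasts and collagens 5 lay above and 1 below, with a median of 0.03, and 8 to 10 lay above without 0 Gy replicate 1 or 3 or 4 Gy replicate 1. Postn, a matrix protein of activated fibroblasts, had 21.7 and 53.7 CPM at 4 Gy, against 14.8, 9.92 and 10.8 CPM at 0 Gy. In the elastic fibre list 4 of 13 lay above and 0 below. Fbln5, which helps elastin assemble, had 13.4 and 26.5 CPM at 4 Gy, against 7.35, 5.52 and 5.72 CPM at 0 Gy (1.54 ± 0.39, adjusted p = 0.192). Of these 3 lists 0 members passed limma's test, with 8, 7 and 4 at an unadjusted p under 0.05.

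The other lists of supporting tissue went different ways. Of 17 genes of smooth muscle and pericytes 6 lay above and 0 below, with a median of 0.34. Hhip, which binds hedgehog ligands, had 2.20 and 1.98 CPM at 4 Gy, against 0.414, 0.178 and 0.682 CPM at 0 Gy (1.52 ± 0.33, adjusted p = 0.138). Of 11 genes of lymphatic vessels 4 lay above and 1 below, with a median of 0.28. Of 18 ligands and targets of TGF-beta 0 lay above and 6 below (11 without 0 Gy replicate 3), with a median of -0.10, that of all genes. Smad3, which carries the TGF-beta signal to the nucleus, had 102 and 90.4 CPM at 4 Gy, against 138, 137 and 108 CPM at 0 Gy. In limma 0 members of these 3 lists passed, with 6, 3 and 1 at an unadjusted p under 0.05.

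The alveolar type 1 and endothelial lists were among several that ranked the unirradiated libraries alike. Alveolar type 1 markers summed to 2024 and 2442 CPM at 4 Gy, against 1260, 884 and 1574 CPM at 0 Gy. Endothelial markers summed to 972 and 1109 CPM at 4 Gy, against 579, 385 and 1261 CPM at 0 Gy. In both, 0 Gy replicate 2 was lowest and replicate 3 the highest of the unirradiated libraries. The type 2, club and ciliated lists had this order too, as did the interferon list (1472, 880 and 1978 CPM at 0 Gy) and the T cell list (721, 666 and 1278 CPM). Not every list did: alveolar macrophage genes summed to 2981, 3505 and 3097 CPM at 0 Gy. The part of the lung marker level of a library in the other differences was not tested.

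**Figure D4:**
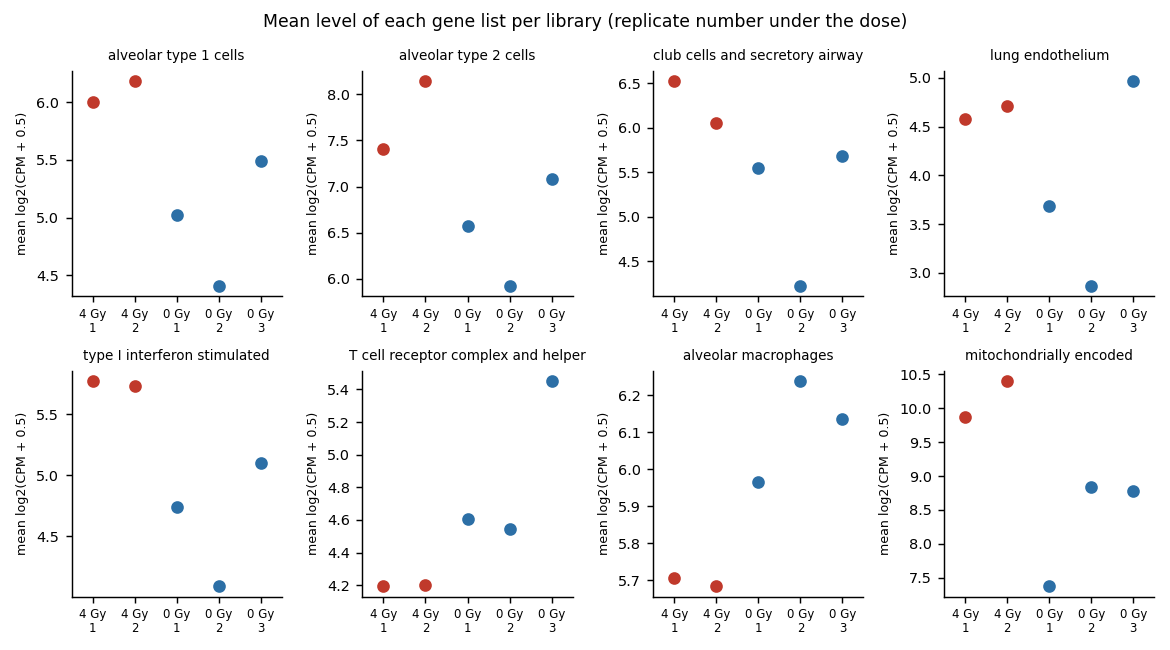
Mean log2(CPM + 0.5) of 8 gene lists in each IgG library, 4 Gy libraries (red) left of 0 Gy libraries (blue). The alveolar type 1, type 2, club cell, interferon and mitochondrial lists are higher in both 4 Gy libraries than in any 0 Gy library, the T cell and alveolar macrophage lists are lower, and the endothelial list is highest in 0 Gy replicate 3.

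Genes of mitosis lay slightly lower, with 11 of 30 below and 0 above the 0 Gy range, where 19.5% of all genes lay below. The median was -0.17, against -0.10 for all genes. It was -0.05 with quantile normalization and -0.10 with equal medians, against -0.04 and -0.03 for all genes. Without 4 Gy replicate 2 it was -0.05, near the -0.04 of all genes. Without 4 Gy replicate 1 it was -0.28, against -0.15 for all genes, and 19 lay below, where 37.2% of all genes did. Bub1b, a kinase of the spindle checkpoint, had 48.2 and 43.4 CPM at 4 Gy, against 66.6, 56.9 and 73.5 CPM at 0 Gy (-0.51 ± 0.15, adjusted p = 0.275). Kif23, a motor of cell division, had 74.1 and 62.6 CPM at 4 Gy, against 93.1, 94.2 and 82.5 CPM at 0 Gy. The proliferation marker Mki67 had 222 and 194 CPM at 4 Gy, against 267, 231 and 284 CPM at 0 Gy (-0.32 ± 0.16, adjusted p = 0.470). The groups did not overlap for these 3 genes, although 4 Gy replicate 1 was close to 0 Gy replicate 2 for Mki67. In DNA replication 2 of 30 lay above and 2 below, with a median of -0.02. In double-strand break repair 0 of 26 lay above and 4 below, with a median of -0.13, which is near that of all genes. Without 4 Gy replicate 1 there were 14 below, where 37.2% of all genes lay below. Parp1, which marks DNA breaks with ADP-ribose, had 80.4 and 80.8 CPM at 4 Gy, against 107, 97.8 and 133 CPM at 0 Gy. In limma 0 members of these 3 lists passed, with 4, 0 and 1 at an unadjusted p under 0.05.

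Of 15 mitochondrially encoded genes, 14 lay above the 0 Gy range, with a median of 1.78, higher than that of any other list. The oxidase subunit gene mt-Co1 had 18043 and 22957 CPM at 4 Gy, against 3694, 8878 and 7396 CPM at 0 Gy (1.71 ± 0.50, adjusted p = 0.260). The nuclear genes of the respiratory chain did not share this: 3 of 24 lay above and 3 below, with a median of -0.01, and 8 lay above without 0 Gy replicate 1. The part of the mitochondrial share in the other differences was not tested. In limma 0 of the 15 and 0 of the 24 passed, with 13 and 1 at an unadjusted p under 0.05. Chaperones of the endoplasmic reticulum had 12 of 19 above and 0 below, with a median of 0.34, and 0 passed limma's test, with 9 at an unadjusted p under 0.05. Hspa5, which encodes the chaperone BiP, had 1092 and 1199 CPM at 4 Gy, against 694, 760 and 559 CPM at 0 Gy (0.78 ± 0.23, adjusted p = 0.260).

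Other single genes stood out by their p without passing. Serpine2, an inhibitor of serine proteases, had the second lowest adjusted p of the comparison (0.0549), at 32.9 and 52.0 CPM at 4 Gy, against 13.4, 11.5 and 9.05 CPM at 0 Gy (1.84 ± 0.26). Scd1, the enzyme that makes monounsaturated fatty acids and is abundant in type 2 cells and fat, had 677 and 1561 CPM at 4 Gy, against 293, 177 and 333 CPM at 0 Gy (1.99 ± 0.34, adjusted p = 0.0626). Hmgcs1, an early enzyme of cholesterol synthesis, had 70.6 and 66.2 CPM at 4 Gy, against 103, 97.3 and 109 CPM at 0 Gy (-0.59 ± 0.13, adjusted p = 0.138). Adnp, a transcription factor of development named after its values were seen, had 7.68 and 4.74 CPM at 4 Gy, against 21.6, 19.009 and 21.3 CPM at 0 Gy (-1.69 ± 0.33, adjusted p = 0.0962). None of these overlapped between the groups. Of 17 genes of skeletal and heart muscle 7 lay below and 1 above the 0 Gy range, where 19.5 and 6.37% of all genes did. The list median was -0.47 (-0.15 without 0 Gy replicate 3), and 0 passed limma's test, with 6 at an unadjusted p under 0.05. Acta1, the skeletal muscle actin, had 0.0592 and 0.174 CPM at 4 Gy, against 2.25, 1.37 and 2.67 CPM at 0 Gy. In 4 Gy replicate 1, 3 reads were worth 0.0555 CPM, so the value there rests on few reads.

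Of 17 dendritic cell genes 1 lay above and 3 below the 0 Gy range (median -0.27), where 6.37 and 19.5% of all genes did. Without 4 Gy replicate 2 there were 10 below, against 25.9% of all genes. Flt3, the receptor that dendritic cells need to develop, had 5.23 and 7.29 CPM at 4 Gy, against 11.8, 11.2 and 21.2 CPM at 0 Gy, so that the groups did not overlap. Of 23 genes of inflammatory cytokines and the inflammasome 3 lay above and 4 below (median 0.03). There were 8 below without 0 Gy replicate 2, where 34.1% of all genes lay below. Without 0 Gy replicate 3 or 4 Gy replicate 2 there were 6 above, where 13.7 and 15.7% of all genes lay above. Of 20 apoptosis regulators 1 lay above and 4 below (median -0.10), near the shares of all genes. There were 7 below without 0 Gy replicate 1 or 2 or 4 Gy replicate 1, where 23.4, 34.1 and 37.2% of all genes lay below. Of 18 genes of senescence and its secreted factors 1, Gdf15, lay above and 0 below (median 0.11). In these 4 lists 0 passed limma's test, with 3, 1, 3 and 1 at an unadjusted p under 0.05.

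In metabolism, 0 of 18 genes of cholesterol and fatty acid synthesis lay above and 3 below (median -0.12), where 6.37 and 19.5% of all genes did. There were 9 below without 0 Gy replicate 2 or without 4 Gy replicate 1, where 34.1 and 37.2% of all genes lay below. Of 21 genes of glycolysis and hypoxia 1 lay above and 1 below (median -0.08). Of 18 antioxidant genes driven by NRF2 0 lay above and 2 below (median -0.03). Of 20 cytosolic ribosomal protein genes 1 lay above and 1 below (median -0.06). Among 9 long nuclear non-coding RNAs 0 lay above and 1 below (median -0.21), and Meg3, an imprinted transcript, had 4.31 and 2.87 CPM at 4 Gy, against 10.4, 6.95 and 12.6 CPM at 0 Gy. Of the 4 histone genes tested 1 lay above and 0 below (median 0.34). Of these 6 lists 0 members passed limma's test, with 3, 1, 1, 0, 2 and 0 at an unadjusted p under 0.05.

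Of 9 mesothelial genes 0 lay above and 0 below (median -0.19), and of 9 genes of adipose tissue 3 lay above (5 without 4 Gy replicate 2) and 1 below (median 0.21). Of 10 red blood cell genes 0 lay above and 1 below (median 0.28), and of 5 genes of nerve and thymus 0 lay above and 1 below (median -0.17). Here 0 members passed limma's test, with 1, 2, 1 and 0 at an unadjusted p under 0.05.

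The IgG lungs at 8 Gy (n = 3) were set against those at 4 Gy (n = 2) to see where the higher dose differed. Lung markers that lay high at 4 Gy were lower at 8 Gy, whereas no difference of the interferon genes was detectable. In limma 288 genes were higher (1.64%) and 1042 lower (5.94%) at 8 Gy. At an unadjusted p under 0.05 in either direction there were 4437 of the 17546 genes, against which the list counts are to be read. The total of 1330 was 120 without 4 Gy replicate 1 and 139 without 4 Gy replicate 2, and 551, 433 and 695 without 8 Gy replicates 1, 2 and 3. With equal medians the split was 607 higher and 943 lower. Of the type I interferon genes 0 of 35 passed in limma in either direction, with 3 at an unadjusted p under 0.05 and a median of 0.19, and for Ifit1 the 8 Gy values were 41.5, 41.2 and 44.9 CPM (8 Gy minus 4 Gy 0.19 ± 0.33). Cdkn1a had 189, 201 and 176 CPM at 8 Gy, a difference of 0.45 ± 0.19 from 4 Gy (adjusted p = 0.154).

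Of the type 1 markers 15 of 20 passed limma's test as lower at 8 Gy than at 4 Gy. So did 14 of 24 ciliated markers, 13 of 24 club cell markers and 12 of 20 type 2 markers, of which 1 passed as higher. At an unadjusted p under 0.05 in either direction there were 20, 21, 23 and 17, where 4437 of all 17546 genes had such a p. Spock2, a proteoglycan of type 1 cells, had 5.78, 7.94 and 6.80 CPM at 8 Gy, against 58.2 and 107 CPM at 4 Gy (-3.45 ± 0.40, adjusted p = 0.000793), and 26.5, 18.5 and 34.5 CPM at 0 Gy. Ccl21a had 1.70, 1.52 and 1.51 CPM at 8 Gy (-3.60 ± 0.32 from 4 Gy, adjusted p = 0.000341). Fbln5 fell to 0.798, 1.96 and 2.37 CPM at 8 Gy (-3.21 ± 0.39, adjusted p = 0.000949). For these 3 genes 4 Gy was the highest of the 3 doses and 8 Gy the lowest, and no library overlapped across doses. Genes could be named because their 8 Gy and 4 Gy libraries were apart, so that separation is no added support. Of the T cell genes 4 of 24 and of the checkpoint and regulatory T cell genes 5 of 23 passed limma's test as higher at 8 Gy than at 4 Gy. At an unadjusted p under 0.05 in either direction there were 17 and 14, to be read against the same 4437 of all genes. Trac had 82.1, 74.2 and 60.7 CPM at 8 Gy (1.08 ± 0.30 from 4 Gy, adjusted p = 0.0434), a call that ended in 10 of 16 alternatives. Ccl24 had 151, 137 and 74.1 CPM at 8 Gy (1.58 ± 0.37, adjusted p = 0.0228), above both 4 Gy libraries. The inflammatory cytokine gene Il1b, which had 29.8 and 37.7 CPM at 4 Gy, had 132, 165 and 158 CPM at 8 Gy (2.16 ± 0.26, adjusted p = 0.000817). These differences share the 4 Gy libraries with the comparison above.

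**Figure D5:**
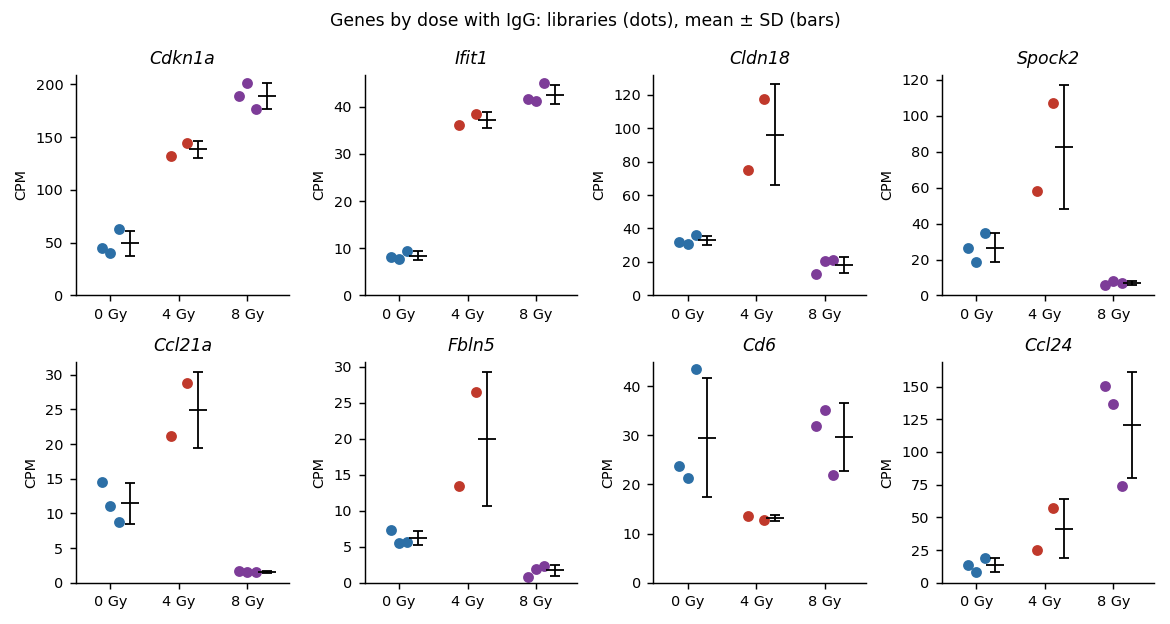
CPM of 8 genes in IgG lungs at 0, 4 and 8 Gy, where dots are libraries and bars the mean ± SD (n = 3, 2 and 3). Cdkn1a and Ifit1 are higher at both doses than at 0 Gy, Cldn18, Spock2, Ccl21a and Fbln5 are highest at 4 Gy and lowest at 8 Gy, and Cd6 is lowest at 4 Gy.

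The effect of 4 Gy with IgG was tested against that with anti-PD-1 in the 10 libraries of these groups, with the spread from all 16. Cdkn1a rose with IgG by 1.50 ± 0.19 and with anti-PD-1 by 2.12 ± 0.19, and the difference of -0.62 ± 0.26 did not pass (adjusted p = 0.117). For the type I interferon genes 0 of 35 passed limma's test of this difference, with 1 at an unadjusted p under 0.05. Of all 17546 genes, 5945 had an unadjusted p under 0.05 in the same test. The fold change with IgG minus that with anti-PD-1 passed as positive for 933 genes (5.32%) and as negative for 660 (3.76%). A positive difference includes genes that were lower by more with anti-PD-1: of 30 mitosis genes 10 passed as positive, and the list medians were -0.17 with IgG and -0.71 with anti-PD-1. With equal medians the split turned to 907 positive and 1012 negative, and with quantile normalization it was 1364 and 1227. The count was 0 without anti-PD-1 4 Gy replicates 2 and 3, which lie far from the other libraries on the first principal component (limma, 2532 at an unadjusted p under 0.05, 14.4%). It was also 0 without IgG 4 Gy replicate 1 or 2, IgG 0 Gy replicate 1 or 3, anti-PD-1 0 Gy replicate 2 or anti-PD-1 4 Gy replicate 2 or 3. With anti-PD-1 0 Gy replicate 1 left out it was 3, with IgG 0 Gy replicate 2 left out 4824, and with anti-PD-1 4 Gy replicate 1 left out 4717.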

How the data were processed

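Bulk RNA was sequenced from pooled HKP1-bearing mouse lungs in 16 libraries. The authors deposited 1 table of CPM values, 30095 genes by 16 libraries; per the submitters' processing notes STAR, Partek and mm10 were used, while the sources used here give no version, annotation, counting setting or strand. The deposited CPM hold an added 0.0001, which was taken off only to estimate depth and left in the values fitted. Only 60.1 to 63.2% of low values came out whole (tolerance 0.02 reads), so no count model was used. Genes that overlap another gene, such as Tapbp, Foxp3, Cldn18, Aldh1a1 and Hmgcs1, may hold its reads. Positions are those of the deposited table, with 1 base taken off each end so that it is the last base of the gene.

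Genes with at least 1 CPM in at least 2 libraries (17546) were tested on log2(CPM + 0.5) with limma 3.58.1 (R 4.3.3, moderated with trend and robust), in 1 fit of 6 group means over all 16 libraries, with Benjamini-Hochberg adjustment over all genes tested and a threshold of 0.05. The fit was tested on simulated data. Samples were grouped by their titles. Named genes were up to 4 members of each of 52 lists with the lowest p, the genes that passed, a few fixed genes, and up to 5 genes in each direction with the lowest p in the other 2 comparisons. Of the lists, 1 is not reported here. The members and lists were chosen with earlier results of these data known. RefSeq promoters (GRCm38.p6) were matched by symbol for 11848 of the 17546 genes. Alternatives changed the scaling, filter, pseudocount, libraries fitted, replicate block and variance model, and left out each library in turn.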

Additional observations from a re-analysis of the deposited data

Results flagged for a closer look

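For 15 named genes the effect of 4 Gy differed between IgG and anti-PD-1 by limma's test of the difference, with adjusted p between 0.033 and 0.045. Over all genes 1593 of 17546 passed, and genes could be named for a low p in this same test, so the 15 are no added support. Over all genes 0 passed with only the groups compared or without IgG 0 Gy replicate 1 or 3, and 4824 without IgG 0 Gy replicate 2. When replicates 2 and 3 of anti-PD-1 4 Gy, which had 6140 and 5364 genes at 0, were left out, 0 of the 15 passed. Differences are the log2 fold change with IgG minus that with anti-PD-1.

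The differences were positive for 8 genes. They were 1.78 for Aldh1a1, 1.68 for the cytokine receptor gene Osmr, 1.53 for Ly6c1 and 1.51 for Hspa5. They were 1.42 for Erap1, which trims peptides for MHC class I, 1.22 for the glucocorticoid target Fkbp5, 1.10 for the alarmin gene Il33 and 0.96 for Ifi204.

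The differences were negative for the other 7. Marco had -2.47, with fold changes of -1.44 with IgG and 1.04 with anti-PD-1. Gdf15 had -2.02, with 0.89 with IgG and 2.91 with anti-PD-1. The differences were -1.78 for Cd22, -1.55 for the T helper factor Gata3, -1.18 for Phlda3, -1.15 for Cd274 and -0.84 for Rnf157, which was named after its values were seen.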

How the results depend on the processing

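The count of genes called at 4 Gy against 0 Gy with IgG was 30 with quantile normalization, 19 with equal medians, 2 with a filter at 5 CPM, 2 with a pseudocount of 1, 3 without the outlying anti-PD-1 libraries and 11 without trend and robust moderation. It was 0 when only the 5 libraries were fitted (limma, 1089 at an unadjusted p under 0.05), and 0 to 45 when 1 library was left out. The difference of the 4 Gy effects between IgG and anti-PD-1 counted 2591 genes with quantile normalization, 415 with no filter and 854 without trend and robust moderation. It was 0 with only the groups compared, 0 without the outlying libraries and 0 to 4824 with 1 library left out. The count at 8 Gy against 4 Gy was 3361 with only the groups compared, 748 with only the IgG libraries and 120 to 695 with 1 library left out. The cause was not tested.

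Leaving out a 4 Gy library left 1, which was assumed to vary like the other groups. Ifng had log2 fold changes from -0.34 without 0 Gy replicate 2 to 0.49 without 0 Gy replicate 3, and -0.24 without 4 Gy replicate 1, so its direction was not settled. Trp53 had values from -0.38 without 0 Gy replicate 2 to 0.044 without 0 Gy replicate 3. With the replicate number in brackets in the titles as a block, the counts were 1, 1 and 1010 for the 3 comparisons. The titles also hold another numbering, which was not used for the block. Deviations of 4 Gy and 0 Gy libraries of the same bracketed number correlated at -0.04 and 0.071. With 2 libraries at 4 Gy their deviations mirror each other, so these values cannot settle a pairing, and none was assumed. DESeq2 was not run, since the table holds no counts. With 2 pools at 4 Gy, a p that misses the threshold does not show that a gene was the same in both groups.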

Other observations

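Of 10 heat shock genes 4 lay above (7 without 4 Gy replicate 1) and 0 below the 0 Gy range (median 0.345), and Hsph1, a co-chaperone, had 90.5 and 87.2 CPM at 4 Gy, against 58.4, 47.7 and 71.6 CPM at 0 Gy. Of 15 immediate early genes, which respond first to stimulation, 0 lay above and 5 below, where 19.5% of all genes lay below, with a median of -0.32. Without 0 Gy replicate 2 there were 12 below and without 4 Gy replicate 2 there were 11, while with equal medians there were 3. Of 20 genes of the glucocorticoid response and the clock 1 lay above and 4 below, near the shares of all genes, with a median of -0.20. Without 4 Gy replicate 1 there were 8 below, where 37.2% of all genes lay below. Per1, a clock gene that glucocorticoids induce, had 42.5 and 34.6 CPM at 4 Gy, against 52.1, 70.3 and 81.9 CPM at 0 Gy. In limma 0 members of these 3 lists passed, with 0, 1 and 2 at an unadjusted p under 0.05.

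The neutrophil list had 4 of 19 above and 0 below the 0 Gy range and a median of 0.00, with 0 passing limma's test and 1 at an unadjusted p under 0.05. Lcn2, an iron-binding protein of neutrophils and stressed epithelium, had 71.5 and 290 CPM at 4 Gy, against 56.1, 49.6 and 36.5 CPM at 0 Gy, so most of its difference lay in 4 Gy replicate 2. Slc26a4, an anion exchanger named after its values were seen, had 2.79 and 6.00 CPM at 4 Gy, against 0.865, 0.311 and 0.991 CPM at 0 Gy (1.97 ± 0.33, adjusted p = 0.0626).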
